A study of Mus musculus with 12 samples.

Results

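The genes described here carry azacitidine (AzaC) and its relatives into the cell, phosphorylate them and break them down. They are 10 genes, chosen by name, out of 22180 genes with a row of their own on the array: the transporters Slc29a1, Slc29a2 and Slc29a3, the kinases Uck1, Uck2, Uckl1 and Dck, the deaminases Cda and Dctd, and the nucleotide hydrolase Samhd1. All 10 were measured. RNA came from activated mouse T cells on 12 Affymetrix arrays, in 4 groups of 3: CD4 effector T cells (CD4 cells) and natural regulatory T cells (nTregs), each with PBS or with 1 µM AzaC. The nTregs came from the spleens of B6.Foxp3GFP mice, whose green reporter follows the transcription factor Foxp3, and were grown as 1 part to 10 parts of Treg-depleted T cells from that strain crossed to B6.CAGDSRED, which carries a red protein driven by the broadly active CAG promoter. All cultures received beads against CD3 and CD28 and 500 U/mL human interleukin-2, for 2 days of activation and 2 more days with the drug or PBS. CD4 cells were then sorted as red and Foxp3 reporter negative, and nTregs as not red and reporter positive. The strain label names the red transgene, Cg-Tg(CAG-DsRed*MST)1Nagy/J, for every array, also for the nTregs, where the growth protocol names B6.Foxp3GFP alone.

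Azacitidine is a ribonucleoside, a cytidine with a nitrogen in its ring. It enters cells through nucleoside transporters and is phosphorylated by uridine-cytidine kinase, after which most of it goes into RNA. Ribonucleotide reductase converts a part to the deoxy form, which is built into DNA and traps the DNA methyltransferases. Decitabine, the deoxy analogue, is phosphorylated by deoxycytidine kinase (Dck) instead. Cytidine deaminase (Cda) inactivates the free nucleosides, Dctd deaminates deoxycytidine monophosphate and its analogues, and Samhd1 hydrolyses deoxynucleoside triphosphates.

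Values are the log2 signals deposited by the authors, and differences are log2 differences from limma, with the standard error (SE). A gene passed at an adjusted p under 0.05 over all 22180 genes. Arrays are named by group and replicate, with AZA for the drug. Foxp3 read 7.79, 8.09 and 8.26 in CD4 cells and 11.98, 12.52 and 12.52 in nTregs under PBS, and 7 of the 8 regulatory T cell markers were higher in nTregs there, without overlap in their mean level (9.31 to 9.38 against 10.66 to 10.95). nTreg PBS 1 differed most from the other arrays: it was the lowest of its group for 8 of the 10 genes, where it was the lowest for 36.6% of all genes, and it correlated with the other 11 arrays at 0.972 on average, where each of those had 0.979 to 0.987. The table holds no detection calls, so whether the dimmest of these genes was expressed was not tested. In sorted populations, fewer cells of a type and less RNA per cell cannot be told apart.

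**Figure D1:**
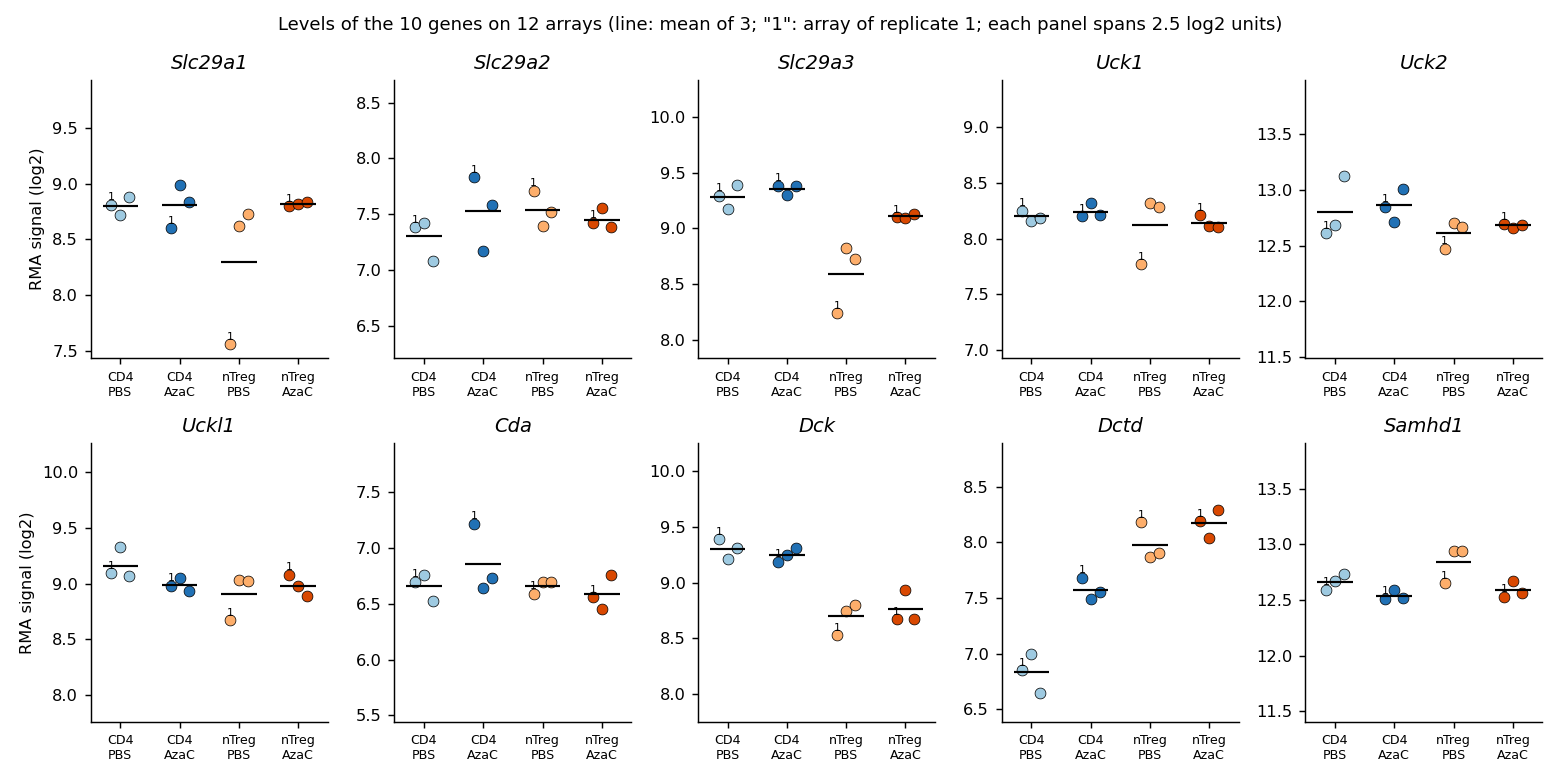
RMA signal (log2) of the 10 genes on each of the 12 arrays; points are arrays, lines the mean of 3, and the digit 1 marks replicate 1 of each group. Dctd rises from CD4 cells under PBS (6.84) to nTregs with AzaC (8.17), Dck is lower in both nTreg groups, and nTreg PBS 1 lies at the bottom of its group for Slc29a1, Slc29a3 and Uck1.

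Of the 10 genes, only Dctd passed for the drug, and in CD4 cells alone. In simulated data 29% of changes of 0.5 on the log2 scale were recovered, so a gene that did not pass may still have changed. By limma, 0 of 10 passed with AzaC in nTregs, where 2.02% of all genes did (1.42% higher and 0.600% lower). In CD4 cells 1 of 10 passed, where 1.76% of all genes did (0.830% higher and 0.933% lower). The gene that passed was Dctd, which rose 1.67-fold. The share of higher genes among all genes called moved with the scaling: in nTregs it was 70.3%, 82.4% after centring and 57.8% after repeated quantile normalization, and in CD4 cells 47.1%, 27.3% and 59.5%. An unadjusted p under 0.05 was found for 3 of 10 genes in nTregs (16.8% of all genes) and 1 of 10 in CD4 cells (15.2%). The median difference over the 10 genes was 0.06 in nTregs and 0.05 in CD4 cells, where all genes had −0.04 and 0.01. The arrays of the treatments were fully apart for 2 of 10 genes in nTregs (24.5% of all genes) and for 3 of 10 in CD4 cells (23.6%), shares near those of all genes. The difference between the AzaC effects of the populations passed for 0 of 10 (0.203% of all genes, 0.144% higher and 0.0586% lower in nTregs), and 2 of 10 had an unadjusted p under 0.05 (17.5% of all genes).

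**Figure D2:**
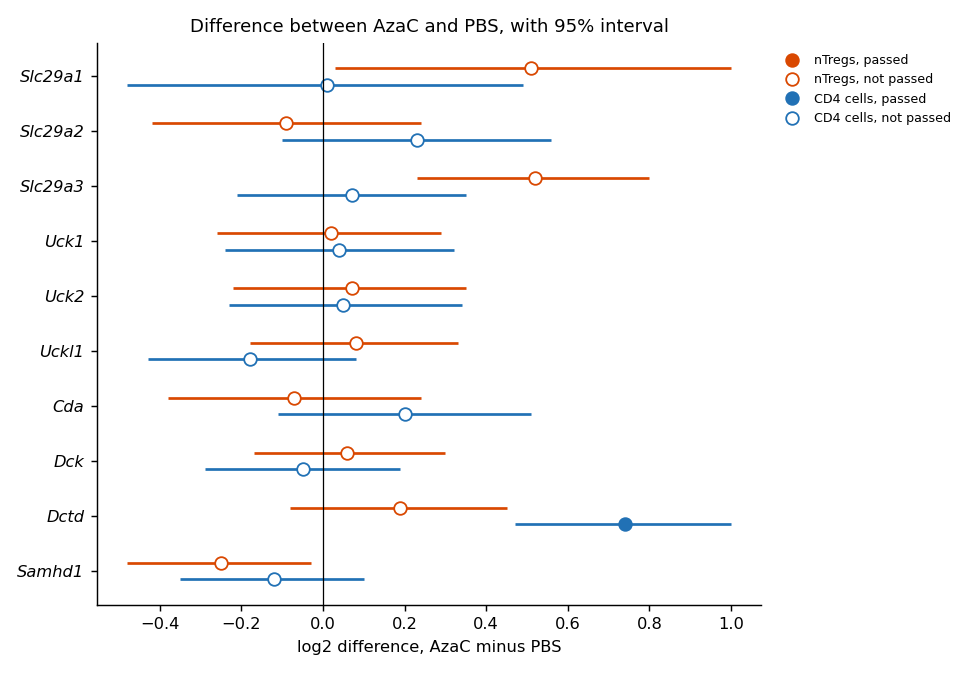
Difference between AzaC and PBS (log2, x axis) with its 95% interval for each gene, in nTregs and CD4 cells. Only Dctd in CD4 cells (0.74) is filled, as the gene that passed; Slc29a3 in nTregs (0.52) has an interval above 0 and did not pass.

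More of the genes passed between the populations. Between nTregs and CD4 cells under PBS, 3 of 10 passed, where 8.01% of all genes did: 1 was higher in nTregs, Dctd (3.90% of all genes), and 2 were lower, Dck and Slc29a3 (4.12%). With AzaC 2 of 10 passed, where 6.75% of all genes did: Dctd was higher (4.57% of all genes) and Dck lower (2.19%). Among all genes called, the share higher in nTregs was 48.6% under PBS, 29.2% after centring and 53.3% after repeated quantile normalization, and with AzaC 67.6%, 75.8% and 56.6%. An unadjusted p under 0.05 was found for 5 of 10 genes under PBS (23.0% of all genes) and for 2 of 10 with AzaC (20.5%). The arrays of the populations were fully apart for 4 of 10 genes under PBS (26.7% of all genes) and for 4 of 10 with AzaC (32.3%). The median difference over the 10 genes was −0.13 and −0.09, against 0.03 and −0.04 for all genes. These comparisons use the same arrays as those of the drug, so the same array enters several of the values below.

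**Figure D3:**
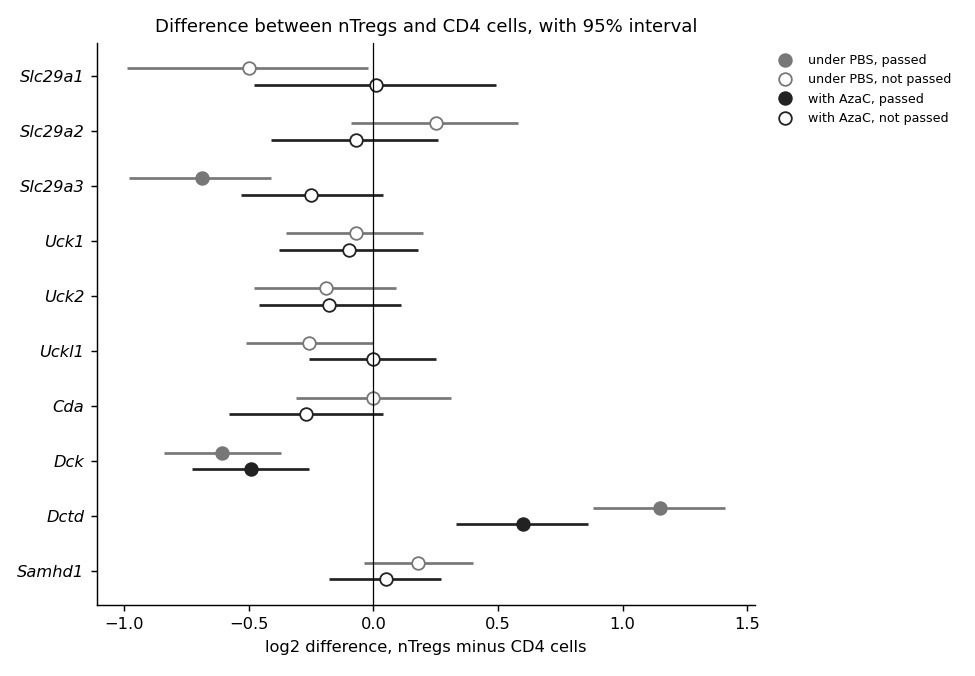
Difference between nTregs and CD4 cells (log2, x axis; above 0 is higher in nTregs) with its 95% interval, under PBS and with AzaC. Dctd (1.15 and 0.60) and Dck (−0.61 and −0.49) are filled under both conditions, and Slc29a3 under PBS alone (−0.69).

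To place the 3 genes that passed, their upstream sequences from RefSeq (GRCm38.p6) are printed below, since the enzymes that azacitidine traps methylate the cytosines of CpG dinucleotides. Each line is the 250 bases before an annotated start, 5′ to 3′ on the gene's strand, with every CpG in capitals. Dctd has 3 annotated starts, of which a distal and a proximal one are shown; the window of the third overlaps the proximal one. The array does not tell which start the RNA came from, and methylation was not measured.
Dctd, proximal start, chr8:48109708-48109957 (+): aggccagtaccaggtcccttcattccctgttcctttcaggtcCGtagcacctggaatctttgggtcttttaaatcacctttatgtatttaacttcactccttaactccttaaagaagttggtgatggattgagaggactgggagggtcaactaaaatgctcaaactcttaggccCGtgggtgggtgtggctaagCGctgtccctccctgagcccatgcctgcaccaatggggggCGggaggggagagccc
Dctd, distal start, chr8:48098842-48099091 (+): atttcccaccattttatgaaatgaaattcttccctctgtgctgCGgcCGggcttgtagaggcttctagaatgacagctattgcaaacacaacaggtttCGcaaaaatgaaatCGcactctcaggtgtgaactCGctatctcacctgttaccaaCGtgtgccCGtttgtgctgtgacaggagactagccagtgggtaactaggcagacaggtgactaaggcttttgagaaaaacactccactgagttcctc
Dck, chr5:88764763-88765012 (+): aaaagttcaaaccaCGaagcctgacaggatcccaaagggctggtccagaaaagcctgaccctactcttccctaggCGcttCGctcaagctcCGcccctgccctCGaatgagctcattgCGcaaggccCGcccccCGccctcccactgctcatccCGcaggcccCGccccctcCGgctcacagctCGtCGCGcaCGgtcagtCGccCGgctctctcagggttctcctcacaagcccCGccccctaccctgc
Slc29a3, chr10:60752783-60753032 (−): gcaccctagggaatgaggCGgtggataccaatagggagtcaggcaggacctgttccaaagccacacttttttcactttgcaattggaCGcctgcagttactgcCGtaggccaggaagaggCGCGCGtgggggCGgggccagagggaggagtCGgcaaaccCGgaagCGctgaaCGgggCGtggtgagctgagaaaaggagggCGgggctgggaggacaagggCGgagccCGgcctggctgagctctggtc
The 250 bases held 4 CpGs at the proximal and 7 at the distal start of Dctd, 18 at Dck and 15 at Slc29a3. Of all 32851 starts in the table, 62.2% held at least 4 CpGs, 46.3% at least 7, 27.3% at least 15 and 21.7% at least 18, and the median was 6. Dctd, the gene that rose in CD4 cells, was near the middle of all starts in CpG count. All 10 genes had an entry, with 21 starts in all. Samhd1 held the most (26 CpGs, reached by 9.6% of all starts), Uck2 held 21 and Cda 14, and the starts of Slc29a1 ranged from 2 to 24.

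The deaminase Dctd, which converts deoxycytidine monophosphate to deoxyuridine monophosphate and thereby feeds thymidylate synthesis, was the only one of the 10 genes past the threshold for the drug. Its signal in CD4 cells was 6.85, 7.0 and 6.65 under PBS and 7.68, 7.49 and 7.55 with AzaC. All 3 treated arrays lay above all 3 controls (difference 0.74, SE 0.12, adjusted p = 0.00725). In nTregs it was 8.18, 7.87 and 7.90 under PBS and 8.19, 8.04 and 8.29 with AzaC, which overlapped (0.19, 95% interval −0.08 to 0.45, adjusted p = 0.455). The AzaC effect was smaller in nTregs by 0.55 on the log2 scale (difference −0.55, 95% interval −0.93 to −0.18), but this did not pass over all genes (adjusted p = 0.195), so the response of Dctd is not shown to differ between the populations. The order of the group means was nTregs with AzaC, nTregs under PBS, CD4 cells with AzaC and CD4 cells under PBS. Only the nTreg groups overlapped among neighbours in that order.

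Between populations, Dctd was 2.22-fold higher in nTregs under PBS (1.15, SE 0.12, adjusted p = 4.75e-05) and 1.51-fold higher with AzaC (0.60, SE 0.12, adjusted p = 0.00846). The difference with AzaC did not pass without nTreg AZA 3 (0.54, adjusted p = 0.052). The rise in CD4 cells passed with each array left out (0.65 to 0.82, adjusted p = 0.00208 to 0.0451). Markers of regulatory T cells moved beside it: in CD4 cells with AzaC, Foxp3 rose from 8.05 ± 0.24 (SD, n = 3) to 9.62 ± 0.23, 2 of the 8 markers passed (Foxp3 and Il2ra), and the mean level of the 8 went from 9.31 to 9.38 under PBS to 9.66 to 9.73. The S phase genes listed for comparison moved too, with a median of 0.30 in CD4 cells. Of these, 3 of 19 were higher (Mcm2, Mcm6 and Cdc6), and 0 to 4 with an array left out. Among all genes, 0.830% were called higher with AzaC in CD4 cells. The part of the regulatory T cell markers or the S phase genes in the result for Dctd was not tested.

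Cda, which removes the amino group of cytidine, deoxycytidine and their drug analogues, did not pass in any of the 5 comparisons. Under PBS it read 6.70, 6.76 and 6.53 in CD4 cells and 6.59, 6.70 and 6.70 in nTregs, and the difference was 0.00 (95% interval −0.31 to 0.31). With AzaC it read 7.22, 6.64 and 6.73 in CD4 cells and 6.56, 6.45 and 6.76 in nTregs. CD4 AZA 1 was the highest array, and without it the difference between AzaC and PBS in CD4 cells was 0.02 in place of 0.20.

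Dck, the kinase of deoxycytidine and of decitabine, was lower in nTregs than in CD4 cells. It read 9.39, 9.21 and 9.31 in CD4 cells and 8.53, 8.75 and 8.80 in nTregs under PBS. With AzaC the values were 9.19, 9.25 and 9.31 in CD4 cells and 8.67, 8.93 and 8.67 in nTregs. Every nTreg array lay below every CD4 array. The difference was −0.61 (SE 0.11, adjusted p = 0.00371) under PBS and −0.49 (SE 0.11, adjusted p = 0.014) with AzaC. That with AzaC did not pass without CD4 AZA 3 (−0.46, adjusted p = 0.0625), nTreg AZA 1 (−0.45, 0.0721) or nTreg AZA 3 (−0.45, 0.0725), while that under PBS passed with each array left out. AzaC itself moved Dck by 0.06 in nTregs (95% interval −0.17 to 0.30) and −0.05 in CD4 cells (−0.29 to 0.19). Beside Dck, S phase genes were lower in nTregs: 4 of 19 under PBS (Mcm7, Cdc6, Cdc45 and Lig1; 1 to 4 with an array left out; median −0.38) and 5 of 19 with AzaC (Cdc6, Cdc45, Pola1, Lig1 and Ccne1; 2 to 6; median −0.26). Among all genes, 4.12% were called lower in nTregs under PBS and 2.19% with AzaC. The part of the S phase genes in the difference of Dck was not tested.

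The uridine-cytidine kinases add the initial phosphate to azacitidine, and none of the 3 passed in any comparison. Uck2, the form with the higher catalytic activity, read 12.61, 12.68 and 13.12 in CD4 cells under PBS and 12.85, 12.71 and 13.01 with AzaC. In nTregs it read 12.47, 12.70 and 12.67 under PBS and 12.69, 12.66 and 12.68 with AzaC. The groups overlapped for the drug in both populations, with differences of 0.07 in nTregs (95% interval −0.22 to 0.35) and 0.05 in CD4 cells (−0.23 to 0.34). With AzaC all nTreg arrays lay below all CD4 arrays, by −0.18 on average (adjusted p = 0.477). A dimmer row of Uck2 gave −0.37 for nTregs minus CD4 cells under PBS (adjusted p = 0.0793 in a fit of every row), against −0.19 for the brighter one.

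Uck1, the other uridine-cytidine kinase, read 8.16 to 8.25 in CD4 cells under PBS and 8.20 to 8.32 with AzaC, and 7.77, 8.32 and 8.28 in nTregs under PBS and 8.10 to 8.21 with AzaC. The low array was nTreg PBS 1. The drug differences were 0.02 in nTregs (95% interval −0.26 to 0.29) and 0.04 in CD4 cells (−0.24 to 0.32); without nTreg PBS 1 the former was −0.16 (adjusted p = 0.498). Uckl1, a uridine-cytidine kinase-like protein, read 9.09, 9.33 and 9.07 in CD4 cells under PBS and 8.98, 9.05 and 8.93 with AzaC. These did not overlap, yet the difference of −0.18 did not pass (95% interval −0.43 to 0.08, adjusted p = 0.498). In nTregs it read 8.67, 9.03 and 9.02 under PBS and 9.08, 8.98 and 8.89 with AzaC. All intervals for the drug on these 3 kinases lay between −0.43 and 0.35.

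Among the equilibrative nucleoside transporters, which let nucleosides pass down their gradient, Slc29a3 was the only one that passed in any comparison, and its rows on the array disagree. This transporter, ENT3, works in lysosomes and other inner membranes. It read 9.29, 9.17 and 9.39 in CD4 cells under PBS and 9.38, 9.30 and 9.38 with AzaC. In nTregs it read 8.24, 8.82 and 8.72 under PBS and 9.10, 9.09 and 9.13 with AzaC. The nTregs under PBS were below every other group without overlap, and those with AzaC lay between them and the CD4 cells. The difference between the populations was −0.69 under PBS (SE 0.13, adjusted p = 0.00512; −0.52 and 0.00533 without nTreg PBS 1), and −0.25 with AzaC, which did not pass (adjusted p = 0.313). Fitted on the arrays of those groups alone, the former did not pass (adjusted p = 0.0699).

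With AzaC, Slc29a3 differed by 0.52 in nTregs (SE 0.13, 95% interval 0.23 to 0.80) and fell short of the threshold (adjusted p = 0.0645). It passed without nTreg PBS 2 (0.63, adjusted p = 0.0341), among genes above the median level (0.0402) and with array weights (0.36, 0.0306), and without nTreg PBS 1 the difference was 0.34 (adjusted p = 0.111). In CD4 cells it was 0.07 (95% interval −0.21 to 0.35), and the difference of the effects, 0.45, did not pass (adjusted p = 0.252). Another row of Slc29a3, dimmer at 5.62 to 6.05 over the 12 arrays, gave 0.01 for nTregs minus CD4 cells under PBS (adjusted p = 0.97) and −0.13 for the drug in nTregs (adjusted p = 0.569). With the mean over both rows the population difference under PBS was −0.34 (adjusted p = 0.0362) and the drug difference in nTregs 0.19 (adjusted p = 0.312). A brighter row is annotated to both Slc29a3 and Gm15466, so its signal cannot be assigned to Slc29a3 and was not tested. It read 9.62, 9.67 and 9.94 in CD4 cells under PBS, 9.96, 9.74 and 9.48 in nTregs under PBS and 9.51, 9.59 and 9.78 in nTregs with AzaC. On that row these groups overlapped, and neither the lower level in nTregs under PBS nor the higher level with AzaC was seen. Beside it in the nTregs, both markers of CD8 T cells rose with AzaC, Cd8a by 1.39 and Cd8b1 by 0.72 (1 of them passed without nTreg PBS 1), and their mean level went from 8.35 to 8.96 under PBS to 9.62 to 9.75. Among all genes, 1.42% were called higher with AzaC in nTregs. The part of the CD8 markers in the values of Slc29a3 was not tested.

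Slc29a1, or ENT1, is the main equilibrative nucleoside transporter of the plasma membrane. It read 8.81, 8.72 and 8.88 in CD4 cells under PBS and 8.60, 8.99 and 8.84 with AzaC, and 7.56, 8.62 and 8.73 in nTregs under PBS and 8.80, 8.82 and 8.84 with AzaC. All treated nTreg arrays lay above all controls, by 0.51 on average, which did not pass (95% interval 0.03 to 1.00, adjusted p = 0.27). The size rested on nTreg PBS 1: without it the difference was 0.14 (adjusted p = 0.651), and that between nTregs and CD4 cells under PBS went from −0.50 to −0.13. The interval in CD4 cells ran from −0.48 to 0.49, the widest for the drug in that population. Its SE, 0.23, was that of the nTreg comparison too, since all 4 groups share 1 spread. The SD (n = 3) was 0.08 and 0.20 in CD4 cells under PBS and with AzaC. In nTregs it was 0.64 under PBS and 0.02 with AzaC. A dimmer row, at 5.15 to 5.59 over the 12 arrays and below the median level of all genes (6.96), gave −0.21 for the drug in nTregs. This was opposite in sign and likewise not passed (adjusted p = 0.35).

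Slc29a2, or ENT2, carries both nucleosides and nucleobases. It read 7.38, 7.42 and 7.08 in CD4 cells under PBS and 7.83, 7.17 and 7.58 with AzaC, and the 4 groups overlapped. The drug difference was 0.23 in CD4 cells (95% interval −0.10 to 0.56) and −0.09 in nTregs (−0.42 to 0.24). Without CD4 AZA 2, the lowest treated array, the former was 0.41 (adjusted p = 0.196).

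Samhd1, which restricts the pool of deoxynucleoside triphosphates and also hydrolyses the triphosphate of decitabine, did not pass in any comparison. It read 12.59, 12.67 and 12.73 in CD4 cells under PBS and 12.51, 12.59 and 12.52 with AzaC. In nTregs it read 12.65, 12.94 and 12.94 under PBS and 12.53, 12.67 and 12.56 with AzaC. The nTreg groups overlapped only through nTreg PBS 1. The drug difference in nTregs was −0.25 (SE 0.10, 95% interval −0.48 to −0.03, adjusted p = 0.241); without nTreg PBS 1 it was −0.35 (adjusted p = 0.0892), and with array weights, which gave that array a weight of 0.19, it was −0.34 and passed (adjusted p = 0.0225). Between nTregs and CD4 cells under PBS the difference was 0.18 (adjusted p = 0.323), and with array weights it was 0.28 and passed (adjusted p = 0.0455). In CD4 cells it was −0.12 (95% interval −0.35 to 0.10). The myeloid and dendritic markers, cells in which Samhd1 is abundant, had mean levels of 6.40 to 6.53 in nTregs under PBS and 6.24 to 6.46 with AzaC. Of these, 1 of 13 passed (Itgam, −0.94), where 0.600% of all genes were lower. Cybb went the other way, from 6.72, 6.34 and 6.77 to 7.32, 7.89 and 7.05, and did not pass. The median difference over the 13 markers was −0.13. Their part in the values of Samhd1 was not tested.

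**Figure D4:**
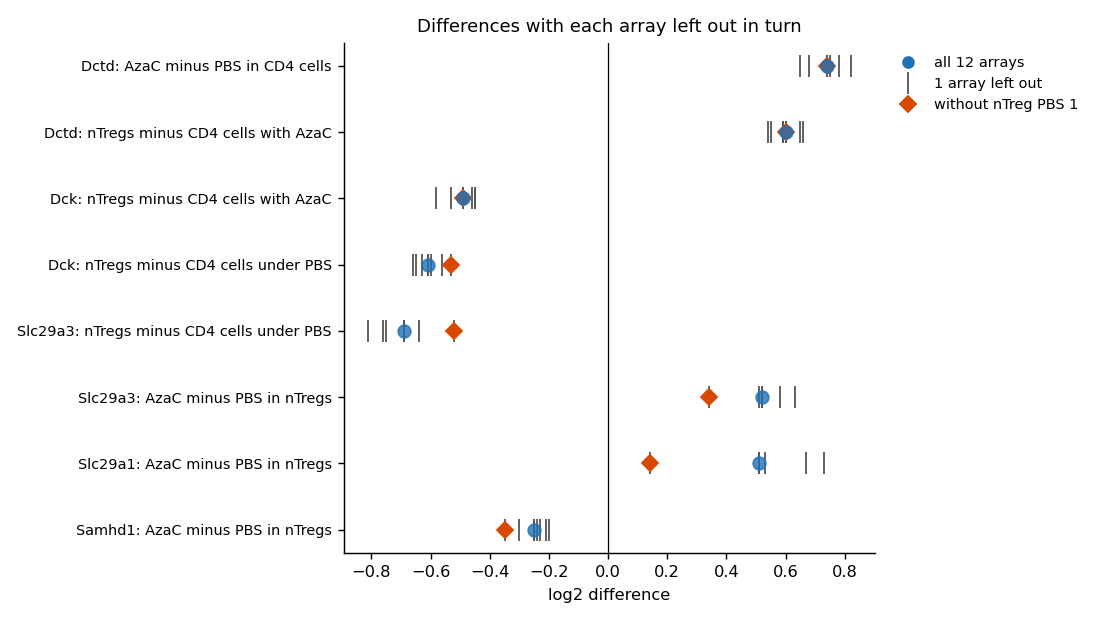
Log2 differences (x axis) for 8 results, with all 12 arrays (circles), with each array left out in turn (ticks) and without nTreg PBS 1 (diamonds). Without nTreg PBS 1, Slc29a1 in nTregs moves from 0.51 to 0.14 and Slc29a3 from 0.52 to 0.34, while Dctd in CD4 cells stays at 0.74.

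Other genes of the pathway were compared as 5 lists. Among all genes, 1.42% were called higher with AzaC in nTregs and 0.830% in CD4 cells. Of 10 other nucleoside carriers and drug exporters, 2 rose with AzaC in nTregs and 1 in CD4 cells (medians 0.24 and 0.09; 0 to 2 and 0 to 1 with an array left out). These were the P-glycoprotein genes, which pump many drugs out of cells. Abcb1a read 7.97, 8.16 and 7.98 under PBS and 8.79, 8.76 and 8.53 with AzaC in nTregs (0.66, SE 0.12, adjusted p = 0.00973). Abcb1b rose by 0.64 in nTregs (adjusted p = 0.00837) and by 0.51 in CD4 cells (adjusted p = 0.0347), from 8.31 ± 0.11 (SD, n = 3) to 8.82 ± 0.08 there. Abcb1a stood at 0.34 in CD4 cells (adjusted p = 0.186). In nTregs, Abcb1a did not pass without nTreg AZA 1 or 2 (0.0584 and 0.057), nor Abcb1b without nTreg AZA 2 (0.0555) or with repeated quantile normalization (0.0574), and with only the groups compared neither did (0.0572 and 0.0704). In CD4 cells, Abcb1b did not pass without CD4 PBS 1 or 2 (0.117 and 0.108), CD4 AZA 1, 2 or 3 (0.145, 0.0626 and 0.101) or nTreg AZA 1 or 3 (0.0584 and 0.0523), nor with the arrays centred on their medians (0.0612) or the replicate block (0.0532). The concentrative transporters Slc28a1, Slc28a2 and Slc28a3 and the carrier Slc29a4 did not pass.

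Of the later enzymes of activation, Nme2 and Nme3 were not measured, and none of the others listed passed for the drug by limma. With AzaC, 0 of 8 genes of later phosphorylation and reduction passed in either population (medians −0.08 and −0.03). Among them are Cmpk1, which adds the next phosphate, and Rrm1 and Rrm2, the subunits of ribonucleotide reductase. Of 15 genes of dephosphorylation and pyrimidine breakdown, 0 passed in either population (medians 0.10 and 0.08). Among all genes, 2.02% passed with AzaC in nTregs and 1.76% in CD4 cells. In nTregs 2 of the 8 genes and 4 of the 15 had an unadjusted p under 0.05 by limma (16.8% of all genes). In CD4 cells 0 of either list did (15.2% of all genes).

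The natural pyrimidines that the drug resembles come from synthesis and salvage. Among all genes, 1.42% were called higher with AzaC in nTregs and 0.830% in CD4 cells. Of 9 genes of pyrimidine synthesis and other salvage, 2 rose in nTregs and 1 in CD4 cells (medians 0.25 and 0.33; 1 to 3 and 0 to 5 with an array left out, the 5 without nTreg PBS 1). Tk1, the thymidine kinase of dividing cells, read 8.88, 9.24 and 9.19 in nTregs under PBS and 9.84, 9.88 and 9.84 with AzaC, without overlap (0.75, SE 0.11, adjusted p = 0.00292). Cad, which starts pyrimidine synthesis, read 7.77, 8.94 and 8.96 in nTregs under PBS and 9.52, 9.82 and 9.70 with AzaC (1.13, SE 0.25, adjusted p = 0.0376). It did not pass without nTreg AZA 1, 2 or 3 (0.0826, 0.153 and 0.127), CD4 PBS 2 (0.0522) or CD4 AZA 1, 2 or 3 (0.0518, 0.0554 and 0.0593) or with only the groups compared (0.173), and it stood at 0.92 in CD4 cells (adjusted p = 0.094). Without nTreg PBS 1 its difference in nTregs was 0.73. Beside these genes, 1 of 19 S phase genes rose in nTregs (Mcm2; median 0.27), and their part was not tested. Ctps, which makes cytidine triphosphate, rose in CD4 cells from 7.96 ± 0.20 to 8.64 ± 0.07 (SD, n = 3; 0.69, SE 0.13, adjusted p = 0.015). It did not pass without CD4 PBS 1 or 2 (0.0534 and 0.0758) or CD4 AZA 1 or 3 (0.0562 and 0.0792).

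Of the mitochondrial pyrimidine nucleotide carriers, Slc25a33 fell in nTregs. It read 9.87, 9.33 and 9.41 under PBS and 8.34, 8.43 and 8.38 with AzaC, without overlap (−1.15, SE 0.17, adjusted p = 0.00267). In CD4 cells it differed by −0.14 (adjusted p = 0.716), and the difference of the effects, −1.01, did not pass (adjusted p = 0.116). Slc25a36, the other carrier, did not pass.

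**Figure D5:**
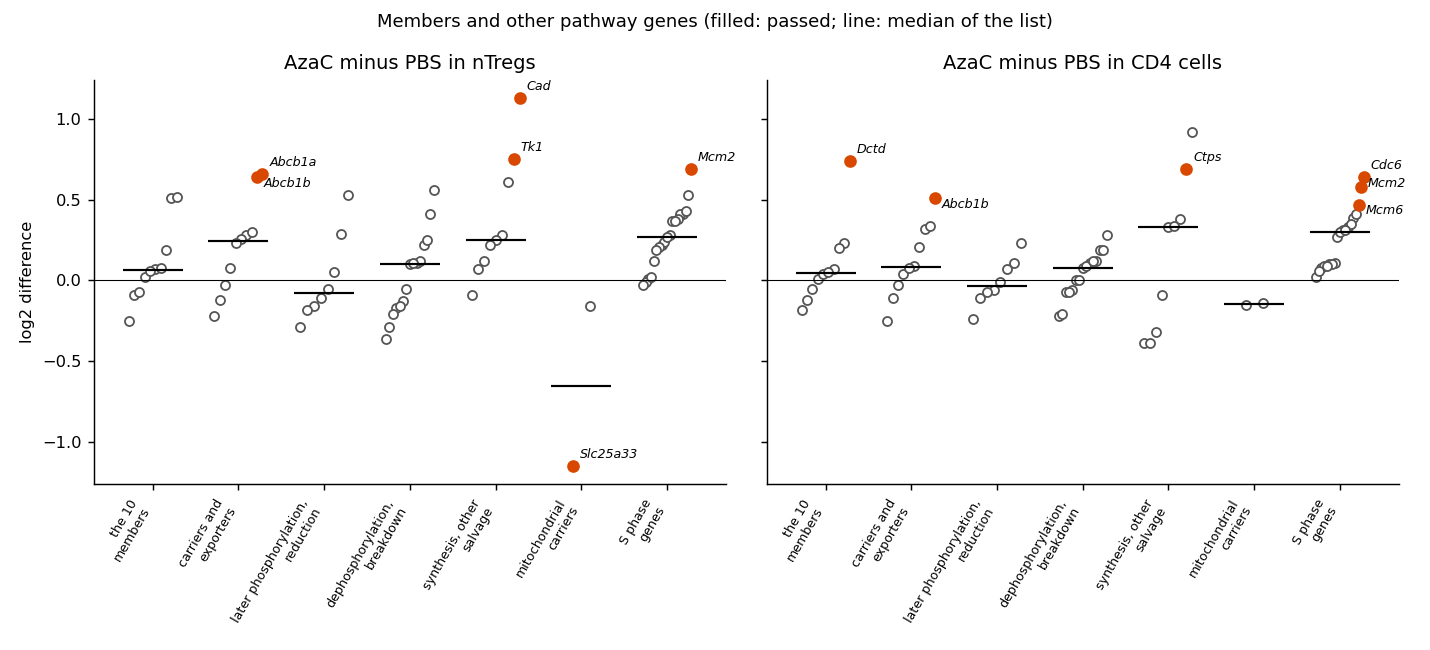
Log2 difference between AzaC and PBS (y axis) for the 10 genes, 5 lists of other pathway genes and the S phase genes, in nTregs (left) and CD4 cells (right); points are genes, filled where they passed, and lines are list medians. In nTregs Cad (1.13) is the highest and Slc25a33 (−1.15) the lowest of the genes drawn.

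For the 3 genes that passed in any comparison, the genes most like them were found by the root mean square distance over the 12 arrays, with each gene centred on its own mean. Nearest to Dctd were Carmil1, a regulator of actin filament ends (0.152), Dcxr, a carbonyl reductase (0.164), and S100a4, a calcium-binding protein (0.172), where the median distance to all genes was 0.55. Carmil1, picked as the nearest, read 6.54 and 7.18 on average in CD4 cells under PBS and with AzaC, and 7.52 and 7.76 in nTregs. This is the same order as Dctd. S100a4 had that order too, and Dcxr did not (10.05 in nTregs under PBS and 9.89 with AzaC). Nearest to Dck were Tmem50b (0.086), Ncapd3, a condensin subunit (0.092), and Fancd2, of the Fanconi DNA repair pathway (0.092), against a median of 0.34. Nearest to Slc29a3 were Map4k1, a kinase of T cell receptor signalling (0.094), Tubg1, gamma-tubulin (0.105), and Ubash3a, a regulator of the same receptor (0.109), against 0.37. The distances use all 12 arrays, nTreg PBS 1 included, and are descriptions without a test.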

How the data were processed

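Biotin-labelled RNA (WT Pico kit) of 12 samples was hybridised, per the labels' protocols. The deposited values are log2 signals; RMA (background correction, quantile normalization and summary per probe set) was run by the authors in Affymetrix Expression Console, as the submitters' processing notes list. Versions and genome build are not given in the sources used here. Array medians lay between 6.67 and 6.80, and values were used as deposited. Of 41345 rows, 23521 carry exactly 1 gene symbol in GEO's platform annotation. The brightest row per gene was kept, which left 22180 genes; 3 of the 10 genes had a further row.

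All 12 arrays were fitted with limma 3.58.1 in R 4.3.3, with 1 mean per group, 8 residual degrees of freedom and empirical Bayes moderation (prior degrees of freedom 5.95). Every adjusted p comes from limma with the Benjamini-Hochberg method over 22180 genes, except in fits of every row. Intervals are 95% and unadjusted. Whether replicates came from separate animals or cultures is not said in the labels, so p-values cover the spread of these samples alone, which may be technical. In simulated data for AzaC against PBS in nTregs, with 200 of 22180 genes changed, 98% of changes of 1 and 29% of changes of 0.5 on the log2 scale were recovered. The number of arrays limits the precision (median SE of a difference 0.13).

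The 10 genes and the lists were chosen with earlier results of these data known. Pathway genes outside the 10 were named where they passed in at least 1 of the 3 drug comparisons, and like-pattern genes as the 3 nearest; S phase genes, markers and other names were picked after their values were seen. Alternatives tried were dropping dim genes, centring, repeated quantile normalization, the mean over rows, only the groups compared, a replicate block, array weights, a variance trend and leaving out each array.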

Additional observations from a re-analysis of the deposited data

How the results depend on the processing

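Over 5 comparisons and 10 genes, 989 of 1000 recomputed values stayed on their side of the threshold without a called value changing sign, 5 newly passed, 5 no longer passed, and 1 called value changed sign. That was Slc29a3 in nTregs minus CD4 cells under PBS, 0.01 in the dimmer row of the gene (chosen after seeing the data). In nTregs, the count of the 10 genes that passed with AzaC was 1 with genes above the median level, 2 with array weights and 0 to 1 with an array left out, against 0. It ranged from 0 to 2 for nTregs against CD4 cells with AzaC (against 2), and with any array left out it was 1 in CD4 cells, 0 for the interaction and 3 for the populations under PBS, where it was 2 with only the groups compared (Slc29a3 lost) and 4 with array weights (Samhd1 added). Over all genes, AzaC in nTregs called 448, but 125 with only the groups compared, 1290 with array weights and 186 to 447 with an array left out; AzaC in CD4 cells called 391, but 1291 with weights and 164 to 1044. The interaction called 45, but 70 among brighter genes, 89 after centring, 401 with weights and 9 to 69. The populations called 1777 under PBS, but 648 with only the groups compared and 1042 to 1862. They called 1498 with AzaC, but 2350 with only the groups compared, 3500 with weights and 896 to 2467. The counts of 1044 and 2467 came without nTreg PBS 1, an array outside both comparisons that enters the spread shared by all groups. Leaving out any other array gave at most 367 for AzaC in CD4 cells and 1597 for the populations with AzaC. Counts without an array rest on fewer samples; otherwise the cause was not tested. Among genes called for the interaction, the share higher was 71.1%, 92.1% after centring and 58.2% after repeated quantile normalization, and centring moved the median interaction of all genes from −0.04 to 0.09. Whether same-numbered arrays share an animal or culture is not given in the labels; their deviations correlated at −0.10 to 0.19, and they were not treated as pairs. With the replicate block, 0, 1, 0, 3 and 2 of the 10 genes passed in the 5 comparisons, as without it, and 451 genes in nTregs and 380 in CD4 cells passed with AzaC.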

Other observations

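Other pathway genes separated nTregs from CD4 cells, named here after their values were seen. Nt5e (CD73), the surface enzyme that makes adenosine from adenosine monophosphate, read 7.93, 8.21 and 8.56 in CD4 cells and 10.05, 10.53 and 10.44 in nTregs under PBS, a 4.30-fold difference (adjusted p = 4.03e-06), and was 4.41-fold higher in nTregs with AzaC. Slc25a33, a mitochondrial pyrimidine nucleotide carrier, was 4.75-fold higher in nTregs under PBS and 2.36-fold higher with AzaC (adjusted p = 1.48e-06 and 0.000364). Nt5e and Slc25a33 passed under all 20 alternatives in both conditions. The exporter gene Abcb1a was 1.67-fold higher in nTregs with AzaC (adjusted p = 0.0012), which passed under all 20. Under PBS it differed by 0.42 (adjusted p = 0.0401), which passed under 9 of 20. With AzaC, Abcg2 (0.55) and Nt5c (0.39) were also higher in nTregs, and passed under 10 and 11 of 20.

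Of 8 genes of later phosphorylation and reduction 2 were lower in nTregs under PBS. Of 9 genes of pyrimidine synthesis and other salvage 1 was. Among all genes, 4.12% were called lower there. Rrm1 and Rrm2, the subunits of ribonucleotide reductase, differed by −0.88 and −0.71 (adjusted p = 0.0118 and 0.00648), and Tk1, a thymidine kinase, by −0.62 (adjusted p = 0.00369). Tyms (−0.41, adjusted p = 0.0737), Tk2 (−0.40, 0.414), Dguok (−0.17, 0.342) and Rrm2b (0.06, 0.825) did not pass. S phase genes were lower beside them (4 of 19, median −0.38; 1 to 4 with an array left out), and their part was not tested. Rrm1 read 8.40 on nTreg PBS 1 and 9.08 and 9.38 on the other nTreg arrays under PBS, against 9.77 to 9.93 in CD4 cells; its call was lost without CD4 PBS 3 (adjusted p = 0.0522) and with only the groups compared (0.0907). With the mean over its rows, Rrm2 stood at −0.45 (adjusted p = 0.17). With AzaC, Tyms (−0.56) and Cmpk2 (−0.52) were lower in nTregs, and each was lost without at least 1 array (adjusted p up to 0.0711 and 0.13).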
